A study of Mus musculus with 10 samples.

Results

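The genes described here are the heat-shock proteins and chaperonins of long-term hematopoietic stem cells (LT-HSCs) sorted from mouse fetal liver. They were taken by name from the gene count table: symbols beginning with Hsp other than Hspg2, with Dnaja, Dnajb or Dnajc, or with Cct2 to Cct8, and Tcp1. The rule found 84 of the 17404 genes of the table, and no expression value entered it. They fell into 3 HSP90, 12 HSP70 and 3 HSP110 proteins, 7 small heat-shock proteins, 2 proteins that bind heat-shock proteins, 2 mitochondrial chaperonins, 10 TRiC genes, 4 DNAJA, 12 DNAJB and 27 DNAJC proteins, and 2 pseudogenes. The libraries were 6 KO (Tnfrsf11aCre; Spi1f/f) and 4 WT (Tnfrsf11a+/+; Spi1f/f), all from E14.5 embryos, with littermates as WT. Both groups carried the floxed Spi1 alleles, and the Cre, expressed from the Tnfrsf11a locus, is active in the macrophage lineage, so the comparison asks how stem cells differ in livers depleted of macrophages.

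Chaperones keep proteins from aggregating and help them fold. HSP70 proteins bind short hydrophobic stretches of an unfolded chain in a cycle of ATP hydrolysis that J-proteins (the DNAJ families) switch on and that HSP110 proteins and other exchange factors reset. HSP90 takes over partly folded clients such as kinases and steroid receptors. The chaperonins are ring-shaped chambers: TRiC, built from 8 related subunits, folds actin, tubulin and other cytosolic proteins, and HSP60 (Hspd1) with its lid HSP10 (Hspe1) does so in the mitochondrial matrix. Heat-shock factor 1 drives many of these genes through heat shock elements, which are inverted repeats of the unit GAA. Adult hematopoietic stem cells are known for slow protein synthesis and a low tolerance of misfolded protein.

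Promoters of RefSeq genes (250 bases before to 50 after the start, build GRCm38.p6) were matched for 66 of the 84 members, 85 promoters in all. The letters GAANNTTCNNGAA, 3 units of a heat shock element with N for any base, were sought on both strands. They stood in 0.603% of all 32851 promoters and in 6 member promoters (7.06%), those of Hspd1, Hspe1, Hsph1 and Dnajb6. These 4 genes are shown because their promoters hold the 3-unit match. In all 4 every KO library lay below every WT library, which held for 3.48% of all genes. Whether the element goes with the change was not tested. Capitals mark the element, and each line runs 5′ to 3′ on the strand given beside it.
Hspe1 and Hspd1, chr1:55088053-55088082, plus strand: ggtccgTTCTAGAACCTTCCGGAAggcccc
Hsph1, chr5:149636280-149636309, minus strand: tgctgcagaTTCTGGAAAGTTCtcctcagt
Dnajb6, chr5:29735843-29735872, plus strand: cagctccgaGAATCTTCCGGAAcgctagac

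Hspe1 and Hspd1 are transcribed away from each other, and the promoter windows of both hold the same 18-base element, which lies 89 to 72 bases before the start of Hspe1 and inside an exon of the transcript Hspd1-202. The Hsph1 element lies after the start, at bases 16 to 28 or 37 to 49 from its 2 annotated starts, in exons of 4 transcripts. The Dnajb6 element lies 46 to 34 bases before 1 annotated start and 127 to 115 before the other, inside exons of Dnajb6-201 and Gm5129-201. The 2-unit forms were common: GAANNTTC stood in 7.86% of all promoters and in those of 14 members, and TTCNNGAA in 8.52% and in 8 members, both of which count the 3-unit promoters again. Among the TRiC genes, Cct2 and Cct8l1 held the first form and Cct5 and Cct6a the second. Hspa8, Hsp90aa1, Hsp90ab1, Hspa9 and Cct4 are among the 18 members with no match.

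RNA from each library was amplified by SmartSeq2, which copies polyadenylated RNA along its length, and between 5315435 and 30941726 counts per KO library and 7633446 and 18256010 per WT library fell on genes. The values below are CPM (counts scaled to a common library size) after TMM scaling unless TPM, a level per transcript length, is named. Spi1 itself, whose deletion the design places in macrophages, ran from 9.10 to 101 CPM in KO and from 6.22 to 50.1 CPM in WT (edgeR adjusted p = 0.337), so its level does not check the labels here. All 12 genes of the list for the sorted population were above 0 in every library. So were all 10 endothelial, all 10 erythroblast and all 10 hepatoblast markers, so detection does not set the sorted population apart. The WT median sum was 681.5 CPM for the 12 genes and 4829 CPM for the endothelial markers. Of the 12, 3 (Cd34, Mecom and Hlf) were called higher in KO, where 1.32% of all genes were. The 12 include Procr, Mecom, Hlf and Slamf1, but also Cd48 and Flt3, which mark progenitors outside the LT-HSC gate, and the general leukocyte gene Ptprc. A pair of WT libraries stood apart. Haemoglobin genes took 23.5% of the counts of WT 15418, against 0.124% to 2.44% in the other WT libraries and 0.296% to 12.4% in KO, and TMM multiplied that library's values the most. WT 15416 held the highest WT value of every member called below. It also held the lowest WT sum of the endothelial markers, 476 CPM against 4197 to 5496 in the other WT libraries. In bulk RNA, fewer cells of a type and less RNA per cell cannot be told apart. The main counts are given with and without these 2 libraries.

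The genes that fell in KO were 1 of 12 HSP70, 1 of 3 HSP90, 1 of 3 HSP110 and 4 of 10 TRiC genes, the mitochondrial HSP10 and 2 J-proteins. These were 10 members, at an adjusted p under 0.1 (edgeR quasi-likelihood test, Benjamini-Hochberg over all 16725 genes tested): Hsph1, Hspe1, Hsp90aa1, Hspa8, Dnajc19, Tcp1, Cct8, Cct5, Dnajb14 and Cct7. They were 10 of the 83 members tested, where 2.67% of all genes were called lower. No member was called higher by edgeR, where 1.32% of all genes were, and 1 was by DESeq2. At an unadjusted p under 0.05, 32 members were lower (10.2% of all genes) and 2 higher (8.60% of all genes). The median log2 fold change of the members was -0.48, and that of all genes was 0.06. In 15 members every KO library lay below every WT library, which held for 3.48% of all genes, and in none did every KO library lie above, which held for 2.88%. The member Dnajc5b had too few counts to be tested. No member was called lower when WT 15416, KO 15405, KO 15406, KO 15411, KO 15412 or KO 15415 was left out. At most 1 gene of the whole table was then called. The median log2 fold change of the members relative to that of all genes was -0.53 to -0.38 in those fits. Without WT 15418, 13 members were called lower and 1, Dnajc22, higher. Of the 16616 genes tested in that fit, 401 were called lower and 209 higher.

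**Figure D1:**
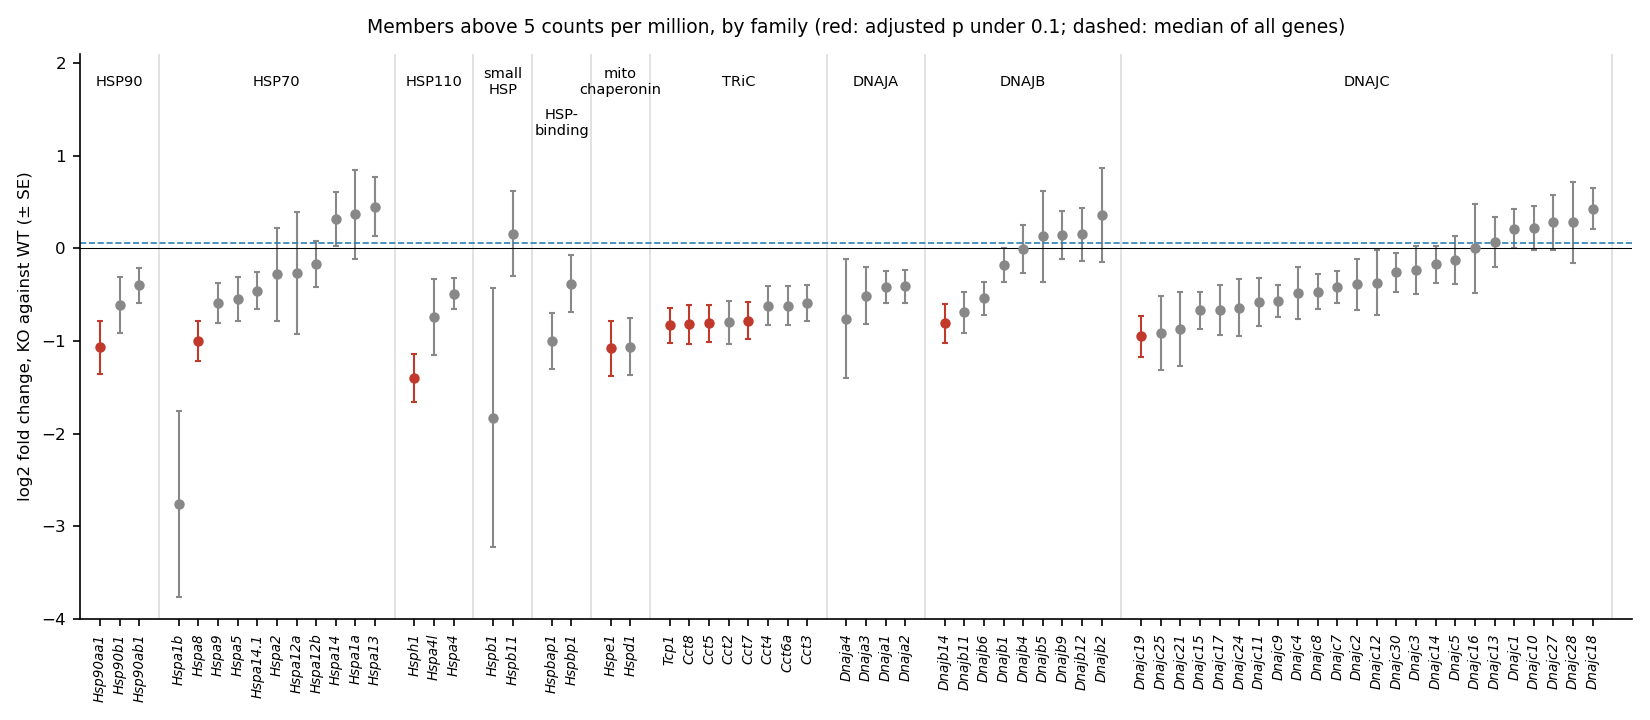
Log2 fold change of KO against WT with its SE (y axis) for the members above 5 CPM on average, grouped by family and ordered by size within each; red points were called lower at an adjusted p under 0.1 and the dashed line is the median of all genes tested, 0.06. The 8 abundant TRiC subunits lie between -0.83 and -0.59, while the DNAJB and DNAJC families spread across 0.

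The subunits of TRiC lay close together. The 8 subunits of the ring were all lower in KO, each at an unadjusted p under 0.05, with log2 fold changes between -0.83 and -0.59 and a median of -0.79. Of the 8, 4 were called, where 2.67% of all genes were called lower: Tcp1 (the alpha subunit, CCT1), Cct5, Cct7 and Cct8. In 6 of the 8 the groups did not overlap by TMM, the exceptions being Cct3 and Cct4. Every KO library lay below every WT library in 3.48% of all genes. With counts scaled by library totals, and in TPM, no subunit had separate groups.

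Tcp1 (chr17:12915701-12925067) measured 959, 520, 536 and 587 CPM in the WT libraries 15416, 15417, 15418 and 15420, and from 313 to 410 CPM with a median of 379.5 in KO. Every KO library was below the lowest WT library, and the log2 fold change was -0.83 ± 0.19 (SE, edgeR adjusted p = 0.0824). Cct5 (chr15:31590800-31601804) measured 1624, 929.6, 907 and 1086 CPM in WT, in the same order, and 510.0 to 809.8 CPM, median 643, in KO. The groups were separate, with a log2 fold change of -0.81 ± 0.20 (edgeR adjusted p = 0.0824). Cct7 (chr6:85451514-85468475) measured 1636, 891, 1003 and 895 CPM in WT and 554 to 737 CPM, median 650.0, in KO, and fell by 0.78 ± 0.20 on the log2 scale (edgeR adjusted p = 0.0836). Cct8 (chr16:87483326-87495873) measured 1246, 632, 579.9 and 735 CPM in WT and 409 to 509.6 CPM, median 445.5, in KO, and fell by 0.82 ± 0.21 (edgeR adjusted p = 0.0836). In each of the 4 the WT library 15416 was far above the others, and the gap between the groups rested on the other 3.

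The other 4 subunits missed the threshold. Cct2 gave -0.80 ± 0.23 (edgeR adjusted p = 0.105) and Cct6a -0.62 ± 0.21 (edgeR adjusted p = 0.152), both with groups that did not overlap. Cct4 gave -0.62 ± 0.21 (edgeR adjusted p = 0.141) and Cct3 -0.59 ± 0.19 (edgeR adjusted p = 0.135), with 3 and 5 of the 6 KO libraries under the lowest WT library. The 2 paralogs outside the ring's usual 8, Cct6b and Cct8l1, were nearly silent. Cct6b, the testis form of Cct6a, was at most 1.11 CPM in any library. Cct8l1 had 28 counts in 2 of the 6 KO libraries and 0 in WT, which is at the floor of 3 counts per library and allows no fold.

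Without WT 15416 all 8 subunits stayed below 0, at a median log2 fold change of -0.52, where that of all genes was 0.08. None of the 8 was called, nor was any gene of the table. Tcp1 then stood at -0.58, Cct5 at -0.59, Cct7 at -0.52 and Cct8 at -0.52. Without WT 15418, 6 of the 8 were called and the median was -0.81. Over the 10 fits that each left out 1 library, 7 or 8 of the 8 subunits had an unadjusted p under 0.05 and a negative change.

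**Figure D2:**
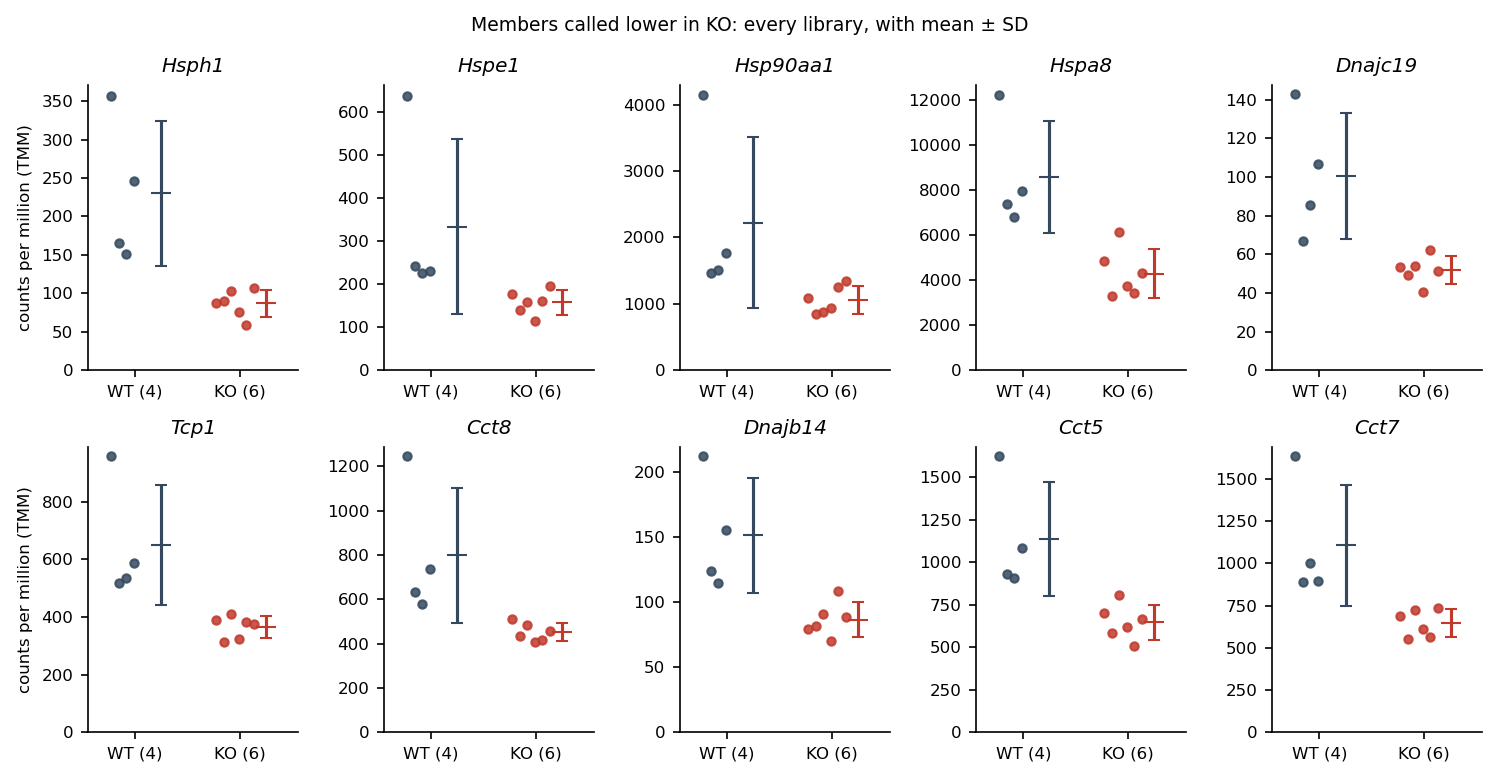
CPM after TMM scaling (y axis, from 0) of the 10 members called lower in KO, 1 point per library, WT on the left (4) and KO on the right (6), with mean ± SD beside the points. In each panel all KO points lie below all WT points, and the highest WT point is library 15416.

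The level per length showed how the ring's transcripts compare. In TPM, Cct6a was the highest subunit in all 10 libraries, and Tcp1 was the lowest in 8 and Cct4 in 2. The highest subunit was 3.07 to 3.86 times the lowest in KO and 3.38 to 3.58 times in WT, with overlapping ranges. The KO and WT ranges of each subunit's share of the 8 overlapped: Cct6a made up 21.7% to 25.2% of the summed TPM in KO and 21.7% to 24.9% in WT, and Tcp1 6.46% to 7.33% in KO and 6.42% to 7.69% in WT. The place of Cct6a came from short entries. Its leading transcript, Cct6a-203, is a 460-base retained-intron model, and it carried 48.1% to 56.7% of the gene's TPM in WT and 39.9% to 43.9% in KO. Counting only transcripts of at least 1000 bases, Cct5 or Cct7 was the highest subunit in every library and Cct2 or Cct6a the lowest, and the highest was 2.97 to 3.63 times the lowest in KO and 2.98 to 4.82 times in WT.

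**Figure D3:**
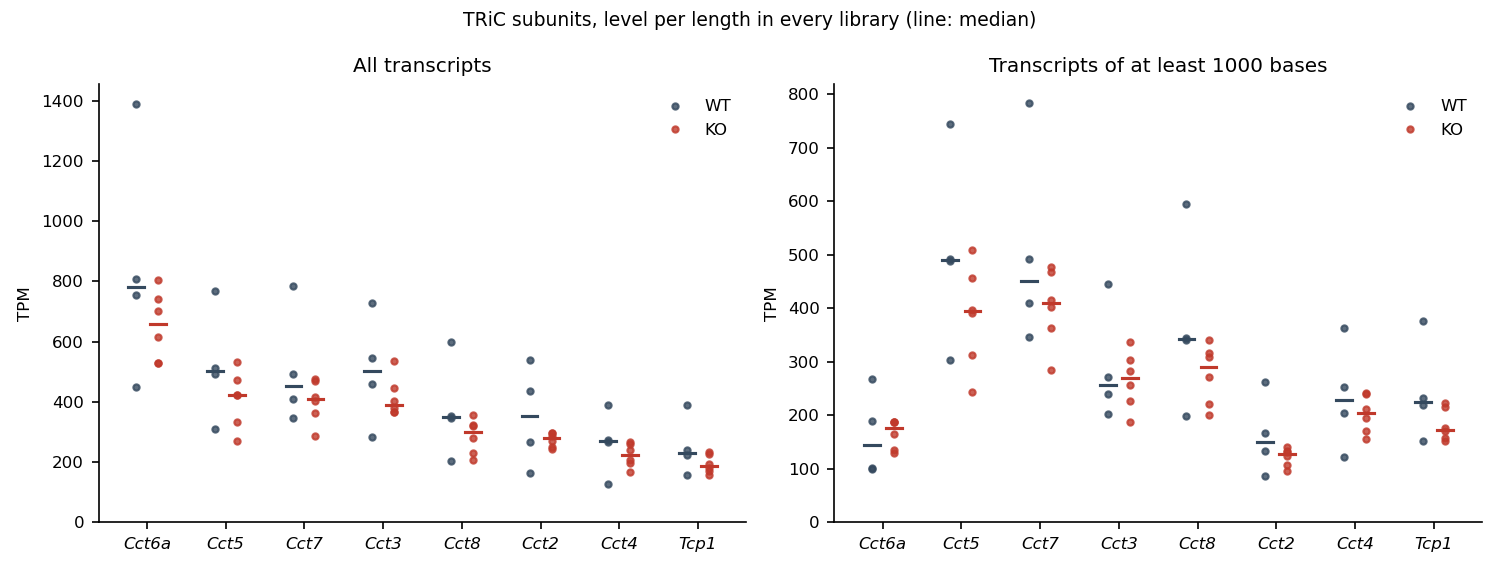
Level per length (TPM, y axis from 0) of the 8 TRiC subunits in every library, WT in dark blue and KO in red with a line at the median, from all transcripts (left) and from transcripts of at least 1000 bases (right). Cct6a leads on the left with a WT median of 781.5 TPM and is among the lowest on the right with 145 TPM, and on this scale WT and KO points overlap for every subunit.

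TPM did not separate the groups. It divides by the sum over all transcripts, haemoglobin included, with no factor like that of TMM. Summed over the 8 subunits, TPM was 5583, 3402, 2043 and 3474 in WT and 2327 to 3470 (median 2864) in KO, so WT 15418, the haemoglobin-rich library, was the lowest of all 10. Not 1 of the 83 members tested had separate groups in TPM, where 0.141% of genes did. Without WT 15418, TPM separated the groups in 4 members, against 22 by TMM, 18 by library totals and 15 with haemoglobin left out. Why TPM separated fewer members was not tested. The separate groups described here thus hold by TMM and not in TPM. TPM is used here for levels, shares and ratios, which are set out by group without a test, and not to call KO against WT.

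By TMM, the mitochondrial chaperonin pair was lower by about the same amount in both parts. Hspe1 (HSP10; chr1:55088132-55091307) measured 637, 241, 224.5 and 229.6 CPM in WT and 113 to 196 CPM, median 159, in KO, and fell by 1.08 ± 0.30 on the log2 scale (edgeR adjusted p = 0.0919). Hspd1 (HSP60; chr1:55077835-55088243) measured 2044, 735, 617 and 625 CPM in WT and 424 to 584 CPM, median 455, in KO. Its change was -1.06 ± 0.31 (edgeR adjusted p = 0.107), short of the threshold, with groups that did not overlap, and DESeq2 with the study's settings called it (adjusted p = 0.0921). For both genes 3 WT libraries lay close together and WT 15416 alone was far higher. Without that library the log2 fold change was -0.56 for Hspe1 and -0.45 for Hspd1, and neither was called. With all libraries and an offset for transcript length it was -0.60 for Hspe1 and -1.03 for Hspd1, again with neither called. Per length the 2 transcripts stood near 1 to 1. The ratio of Hspe1 to Hspd1 in TPM was 0.871 to 1.21 (median 1.11) in KO and 1.04 to 1.22 (median 1.15) in WT, and the ranges overlapped. In WT the level of Hspd1 ran from 158.5 TPM in WT 15418 to 722 TPM in WT 15416, and that of Hspe1 from 192 to 749 TPM in the same libraries.

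Of the other mitochondrial members named, Dnajc19 was called. Hspa9 (mortalin, the mitochondrial HSP70) measured 869.8, 526, 384 and 428 CPM in WT and 292 to 426 CPM, median 374, in KO, a change of -0.59 ± 0.22 (edgeR adjusted p = 0.188) with overlapping groups. Dnajc19, a J-protein of the inner-membrane import motor, measured 143, 66.6, 85.6 and 107 CPM in WT, 40.2 to 62.5 CPM (median 52.5) in KO, with separate groups and a log2 fold change of -0.95 ± 0.22 (edgeR adjusted p = 0.0824), or -0.43 with an offset for transcript length. Its paralog Dnajc15 gave -0.67 ± 0.20 (edgeR adjusted p = 0.114) and was called by DESeq2 and, in edgeR, with the stricter filter on low counts.

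In the HSP70 family the bulk of the RNA was Hspa8, the constitutive HSC70. It made up 79.8% to 89.2% of the family's TPM in WT and 76.3% to 80.9% in KO, and with a WT median of 3717 TPM it was the highest of all members, ahead of Hsp90ab1 with 1555 TPM and Hsp90aa1 with 929 TPM. Hspa8 (chr9:40800984-40810087) measured 12250, 7391, 6808 and 7947 CPM in WT and 3281 to 6164 CPM, median 4015, in KO. Every KO library was below the lowest WT library, and the gene fell by 1.0 ± 0.22 on the log2 scale (edgeR adjusted p = 0.0824), that is to 4294 ± 1091 (SD, n = 6) from 8598 ± 2477 (SD, n = 4) CPM.

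Of the 12 HSP70 genes 1, Hspa8, was called by edgeR, where 2.67% of all genes were called lower. DESeq2 with the study's settings called 2 (Hspa8 and Hspa1b), where it called 3.29% of all genes lower. In edgeR 9 of the 12 were below 0. Hspa5 (BiP, the HSP70 of the endoplasmic reticulum) measured 888, 1696, 1430 and 1318 CPM in WT and 710 to 1514 CPM, median 786, in KO, a change of -0.55 ± 0.24 (edgeR adjusted p = 0.246). The highest KO value was that of KO 15409, far above the other 5. Without KO 15409 Hspa5 was called lower at -0.75 (edgeR adjusted p = 0.0692). Hspa14.1, the row that holds Hspa14 in a later annotation, gave -0.46 ± 0.20 (edgeR adjusted p = 0.235), while the row named Hspa14 holds an overlapping gene model and gave 0.32 ± 0.29. Hspa13 had the largest positive change of the family, 0.45 ± 0.32 (edgeR adjusted p = 0.478). Hspa2, best known from the testis, was low at 2.07 to 12.6 CPM and gave -0.28 ± 0.50.

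The HSP110 proteins, the exchange factors of HSP70, included the called member with the lowest fold change. Hsph1 (HSP105; chr5:149614287-149636376) measured 357, 166, 151 and 246 CPM in WT and 58.7 to 107 CPM, median 88.4, in KO. The lowest WT library was above the highest KO library, and the log2 fold change was -1.40 ± 0.26 (edgeR adjusted p = 0.0824). It was the only member whose groups were separate also when counts were scaled by library totals. Hspa4 gave 299, 197, 193 and 207 CPM in WT and 138 to 185.5 CPM in KO, a change of -0.49 ± 0.17 (edgeR adjusted p = 0.159) with groups that did not overlap. Hspa4l gave -0.74 ± 0.41 (edgeR adjusted p = 0.351).

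Hspa1a and Hspa1b, the stress-inducible HSP70 genes, lie side by side on chromosome 17 (chr17:34969190-34972156 and chr17:34956436-34959238) and pointed in opposite directions. Hspa1a gave 0.37 ± 0.48 (edgeR adjusted p = 0.730). Hspa1b measured 1.52, 22.1, 8.58 and 63.7 CPM in WT and 0 to 6.66 CPM, median 3.53, in KO, the lowest change of any member at -2.76 ± 1.0 (edgeR adjusted p = 0.173). DESeq2 with the study's settings called it lower (adjusted p = 0.0759). WT 15416, the highest WT library of the called members, was the lowest here. Of the 31-base words in the Hspa1b transcript, 67.6% also occur in Hspa1a, and reads from those stretches cannot be told apart. When the counts of the pair were added, the sum measured 13.3, 44.1, 25.9 and 73.6 CPM in WT and 10.9 to 42.5 CPM in KO, the groups overlapped and the change was -0.75 ± 0.45 (edgeR adjusted p = 0.393). Their promoters are near copies as well, with 296 identical bases of 300, and the 120 bases around the GAANNTTC match of Hspa1a, 104 to 97 bases before its start, are the same in Hspa1b. They are shown to print the stretch that both genes share, with the match in capitals (chr17:34972197-34972316 for Hspa1a and chr17:34959279-34959398 for Hspa1b, both minus strand).
Hspa1a and Hspa1b: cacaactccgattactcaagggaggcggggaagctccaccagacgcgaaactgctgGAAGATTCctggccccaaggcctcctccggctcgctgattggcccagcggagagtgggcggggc

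**Figure D4:**
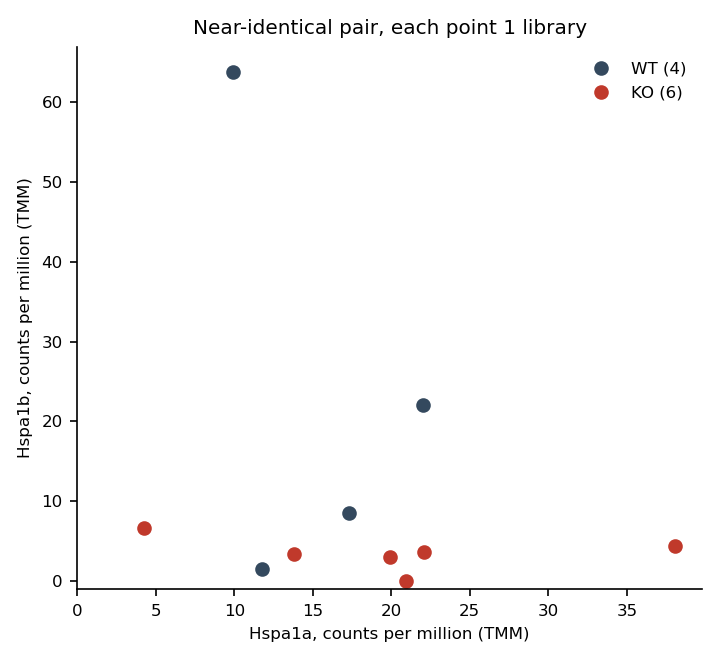
CPM after TMM scaling of Hspa1a (x axis) against Hspa1b (y axis), 1 point per library, WT in dark blue (4) and KO in red (6). The KO points spread from 4.22 to 38.1 along Hspa1a and stay at or under 6.66 on Hspa1b, and 1 WT library, 15420, reaches 63.7.

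Of the 3 HSP90 genes 1 was called, where 2.67% of all genes were called lower. Hsp90aa1 (HSP90 alpha, the inducible form; chr12:110690605-110702728) measured 4137, 1464, 1501 and 1764 CPM in WT and 844 to 1340 CPM, median 1012, in KO, and fell by 1.07 ± 0.29 on the log2 scale (edgeR adjusted p = 0.0906). The gap between the groups was narrow, 1340 against 1464 CPM, and WT 15416 was far above the rest. Without WT 15416 the change was -0.58 and was not called. Hsp90ab1 (HSP90 beta, the constitutive form) measured 5194, 3341, 3144 and 5325 CPM in WT and 2656 to 3665 CPM in KO, a change of -0.40 ± 0.19 (edgeR adjusted p = 0.268). Hsp90b1 (GRP94, in the endoplasmic reticulum) gave -0.61 ± 0.30 (edgeR adjusted p = 0.296). The ratio of the alpha to the beta form in TPM was 1.30, 0.668, 0.804 and 0.545 in WT and 0.430 to 0.692 in KO, with overlapping ranges. Whether the 2 changes differ was not tested.

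The J-proteins lay on both sides of 0. Of 42 tested, 2 were called lower, Dnajc19 and Dnajb14, where 2.67% of all genes were. The J-proteins together made up 8.59% to 11.9% of the members' TPM in WT and 11.7% to 13.9% in KO. Dnajb14, a J-protein anchored in the membrane of the endoplasmic reticulum, measured 212, 124, 114.5 and 156 CPM in WT and 70.0 to 109 CPM, median 85.1, in KO, a fall of 0.81 ± 0.21 (edgeR adjusted p = 0.0836), with a change of -1.36 under the length offset. All 4 DNAJA genes were below 0, with Dnaja1 at -0.42 ± 0.17 and Dnaja2 at -0.41 ± 0.18 at unadjusted p of 0.0309 and 0.0384 (edgeR). The DNAJB family had 6 genes above and 6 below 0. Dnajb6, which suppresses aggregation of polyglutamine proteins, had separate groups (141, 145.5, 113 and 185 CPM in WT, 79.3 to 110 CPM in KO) and a change of -0.54 ± 0.18 (edgeR adjusted p = 0.131). Dnajb1 (HSP40), the classic inducible partner of HSP70, gave -0.18 ± 0.18 (edgeR adjusted p = 0.640) and was above 0 without WT 15418 or when library totals replaced TMM. Dnajb11, the J-protein partner of BiP, gave -0.69 ± 0.22 (edgeR adjusted p = 0.129), and without KO 15409 it was called lower at -0.85 (edgeR adjusted p = 0.0538). Dnajc3, another in the endoplasmic reticulum, gave -0.23 ± 0.26. In the DNAJC family 18 of the 26 tested were below 0 and the median was -0.38. Dnajc7, the DNAJC gene with the highest TPM, gave -0.42 ± 0.17 (edgeR adjusted p = 0.200).

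Small heat-shock proteins were low in these cells and varied widely between libraries. Hspb1 (HSP25) measured 70.4, 4.70, 0.444 and 1.70 CPM in WT and 0.158 to 21.3 CPM in KO, with most of the WT sum in WT 15416, and its change was -1.83 ± 1.40, or 1.24 without that library. Hspb11, listed with the family by name, was the highest per length and gave 0.16 ± 0.46. Hspb9 had 66 counts spread over 5 of the 6 KO libraries and none in WT. Set against the floor of 3 counts in each WT library, 0.285 CPM, its KO mean was at least 2.66-fold higher. KO 15411, 15412 and 15415 were under that floor, at 0.228, 0.124 and 0 CPM. It was not called by edgeR (adjusted p = 0.129) and was called by DESeq2 (adjusted p = 0.0643). Dnajb7 had 31 counts in 3 KO libraries and none in WT. Its KO mean was 1.06 times the same floor, but its KO median, 0.0657 CPM, was under it, which allows no fold. Hspbap1, a binding protein, gave -1.0 ± 0.30 (edgeR adjusted p = 0.113) and was called lower by DESeq2 with the study's settings (adjusted p = 0.0668). Hspbp1, an HSP70 exchange factor, gave -0.38 ± 0.31. The 2 pseudogenes stayed under 5 CPM in every library.

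The spread between libraries was as follows. For the 68 members above 5 CPM the median coefficient of variation was 18.5% in KO and 31.8% in WT. Among the 10 called members, WT 15416 was the highest WT library in all 10, and the lowest WT library was 15418 in 6 and 15417 in 4. The highest KO library was 15415 in 4, 15409 in 3, 15412 in 2 and 15405 in 1.

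The number of members called changed with the scale. When library totals replaced TMM, the median log2 fold change of all genes moved from 0.06 to 0.32, and no member was called by edgeR. Relative to the median of all genes, the median of the members stood at -0.56 by totals and -0.54 by TMM. That of the 8 TRiC subunits stood at -0.86 by totals and -0.85 by TMM. Over all genes library totals called 34 higher and 3 lower, where TMM called 221 higher and 446 lower. With haemoglobin counts left out of the totals, Hsph1 and Hspa8 were called lower and 270 genes were higher and 78 lower. Groups were separate in 1 member by totals and in 5 with haemoglobin left out (Cct5, Cct7, Hspa8, Hsph1 and Tcp1), against 15 by TMM. Over all genes that held for 0.389% by totals and 1.51% with haemoglobin left out. Without WT 15418, separate groups were found in 22 members by TMM, 18 by totals, 15 with haemoglobin left out and 4 in TPM, where 5.59%, 3.61%, 3.31% and 1.5% of all genes had them. An offset for transcript length per library left no gene called, with the TRiC median at -0.62. Hspe1 was then at -0.60, Hspd1 at -1.03 and Hsph1 at -1.52. Dnajc19 moved to -0.43 (edgeR adjusted p = 0.351) and Dnajb14 to -1.36 (edgeR adjusted p = 0.135). With that offset 26 members were lower at an unadjusted p under 0.05, where 7.31% of all genes were lower, and 2 were higher, where 7.12% were. DESeq2 with the study's settings called 14 members lower (3.29% of all genes) and Hspb9 higher (3.50% of all genes).

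**Figure D5:**
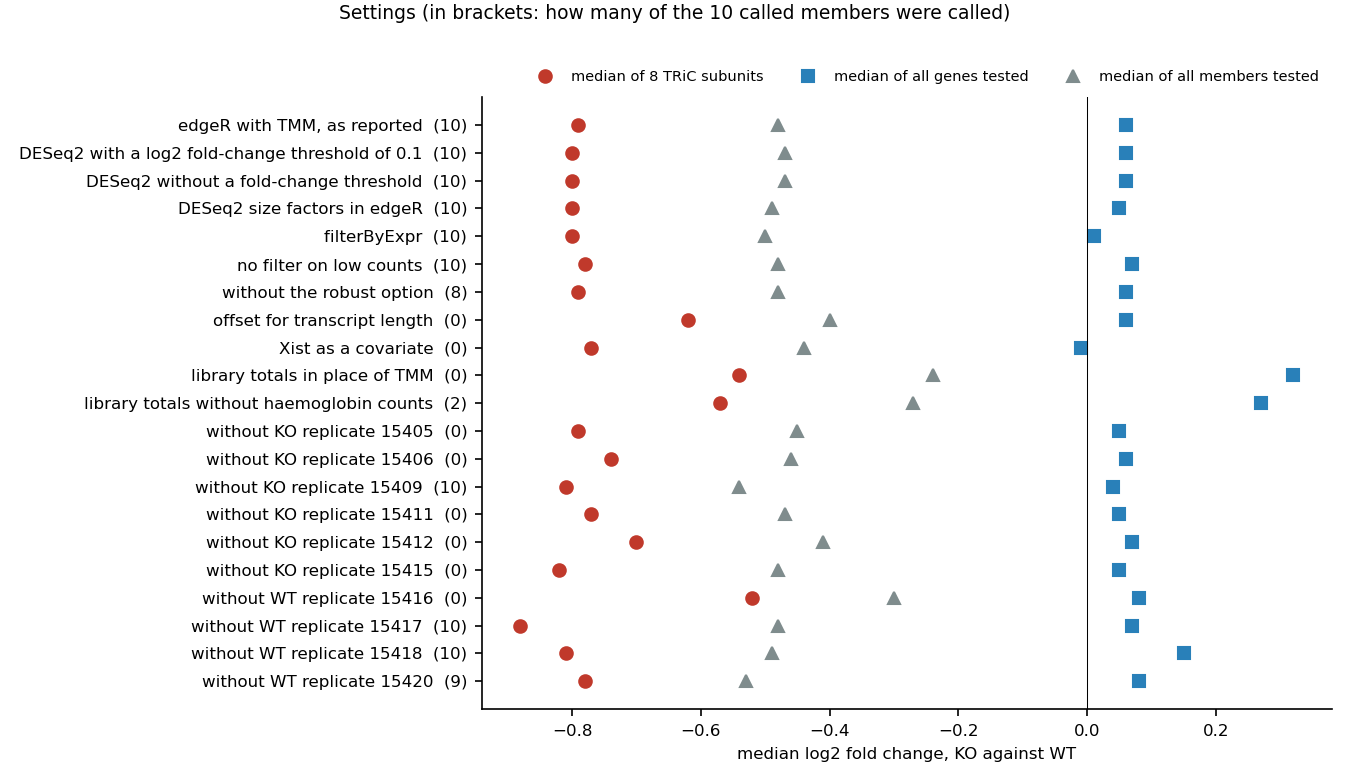
Median log2 fold change of KO against WT (x axis) under each setting that refitted the data (rows) for the 8 TRiC subunits (red circles), all members tested (grey triangles) and all genes tested (blue squares), with the number of the 10 called members that were called again in brackets. The red circles stay between -0.88 and -0.52 in every row, while the bracketed number falls to 0 in 9 rows.

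Partner genes came from 6 lists. Of 79 genes tested in lists of co-chaperones, exchange factors, prefoldin, heat-shock factors, endoplasmic reticulum folding and mitochondrial proteases, 4 were called lower by edgeR and none higher, where 2.67% and 1.32% of all genes were. At an unadjusted p under 0.05, 28 were lower and 2 higher, where 10.2% and 8.60% of all genes were, and the median was -0.36. The 4 were Ppid (cyclophilin 40, a co-chaperone of HSP90; -1.13 ± 0.26, edgeR adjusted p = 0.0824), Bag1 (an HSP70 exchange factor; -1.12 ± 0.25, edgeR adjusted p = 0.0824), Pfdn6 (a prefoldin subunit that hands chains to TRiC; -0.92 ± 0.23, edgeR adjusted p = 0.0836) and Ruvbl2 (an ATPase that works with HSP90; -0.87 ± 0.23, edgeR adjusted p = 0.0910). For all 4 every KO library lay below every WT library, which held for 3.48% of all genes and also for some uncalled genes of these lists. Stip1 (HOP, which links HSP70 and HSP90) gave -0.67 ± 0.21 (edgeR adjusted p = 0.128) and Trap1, the mitochondrial HSP90, -0.36 ± 0.21. Heat-shock factors, the HSP70 exchange factors Bag3 and Hyou1 and the other named partners were not called. Hsf1 gave -0.03 ± 0.28, Hsf2 0.28 ± 0.25, Bag3 0.09 ± 0.33 and Hyou1 0.16 ± 0.32, all with adjusted p (edgeR) of at least 0.592.

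Markers of other cells and of handling also varied between the libraries. Of 20 immediate early and dissociation genes 5 were called higher in KO and none lower, where 1.32% and 2.67% of all genes were. The 20 summed to 456 to 1523 CPM in WT and 1256 to 3618 in KO. All 10 erythroblast markers tested were below 0 and Epor was called lower, and their summed level ran from 2735 to 240500 CPM in WT and from 2218 to 95080 in KO. Macrophage markers summed to 92.0 to 708.5 CPM in WT and 214 to 921 in KO, and 10 of the 13 tested were below 0, at a median of -1.17. Mrc1, which sinusoidal endothelium also expresses, and Vcam1 together exceeded the other 11 genes in each of the 10 libraries. Without these 2 genes the other 11 summed to 33.8 to 302 CPM (median 142) in WT and 49.4 to 157 (median 62.1) in KO. Marco and Clec4f were at 0 in every KO library, and Marco was called lower. Granulocyte markers ranged from 7.66 to 2215 CPM in WT and 18.5 to 1374 in KO, hepatoblast markers from 272 to 6120 and 95.2 to 8936, and endothelial markers from 476 to 5496 and 1645 to 8308, with none called in these 3 lists. WT 15416 held the lowest WT sum of the endothelial, macrophage, granulocyte, hepatoblast, erythroblast and immediate early lists. The genes of the list for the sorted population summed to 601 to 870 CPM in WT and 940.0 to 1939 in KO. The part of any of these in the lower chaperone values was not tested.

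Transcript shares gave a second readout of the same genes. Among the 50 members at 5 TPM or more with several transcripts, the share of the leading transcript was lower in every KO library than in any WT library for 5 (Cct6a, Dnajb14, Dnajc13, Hsp90ab1 and the row Hspa14.1) and higher for 1 (Hspa4). Over the 8099 genes at that level with several transcripts, the share was lower in 3.09% and higher in 0.346%. For Hsp90ab1 the full-length Hsp90ab1-201 carried 94.8% to 98.2% of the TPM in WT and 72.8% to 93.8% in KO, and a 685-base retained-intron model, Hsp90ab1-204, carried 1.44% to 4.89% in WT and 5.34% to 16.7% in KO. In Hspa4 the full-length Hspa4-201 carried 44.7% to 53.2% in WT and 53.6% to 68.7% in KO, with the retained-intron model Hspa4-202 at 43.2% to 54.8% in WT and 15.2% to 41.6% in KO. These shares are estimates by pseudoalignment with no error attached, and they were not tested.

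Several members share sequence with copies elsewhere in the genome. Of the 84, 26 share at least 10% of their 31-base words with other genes. For 4 of them the copy sharing most words received few counts: the pseudogene Gm15459 took at most 0.168% of the count of Hspa8, Gm12346 at most 0.390% of that of Hsp90aa1, Hspd1-ps3 at most 0.225% of that of Hspd1, and the neighbouring Acat3 at most 1.58% of that of Tcp1. Hspe1 shares 30.5% of its words with other genes, and the counts of its closest copy were not analysed here. Among called members with less shared sequence, Usp16 had 4.96% to 11.8% of the count of Cct8, and Supt7l, which shares 1.20% of the words of Dnajb14, had 16.9% to 43.6% of its count in WT and 42.3% to 80.1% in KO. Dnaja1 differed, since its pseudogene Gm15542 received 19.1% to 27.6% of the Dnaja1 count in KO and 23.9% to 31.4% in WT. The strand setting of the counting is not given in the sources used here, and reads of overlapping neighbours such as Usp16 beside Cct8 and Psph beside Cct6a cannot be fully told apart.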

How the data were processed

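LT-HSCs were sorted from enzymatically digested E14.5 fetal livers of 6 KO and 4 WT embryos and sequenced as bulk single-end SmartSeq2 libraries. The authors demultiplexed reads with bcl2fastq 2.20 and quantified Gencode vM16 transcripts (GRCm38) with kallisto 0.44.0; the strand setting is not given in the sources used here. They deposited per library the estimated counts and TPM of each transcript, and 1 gene table of raw counts, the estimated counts summed by symbol and rounded. The gene table was within 1 count of the transcript sums for 97.5% of values.

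The test took every gene whose counts summed to 11 or more over the libraries and was run with edgeR 4.0.16 (R 4.3.3; glmQLFit with robust estimation, glmQLFTest, TMM), with calls at a Benjamini-Hochberg adjusted p under 0.1; SEs come from the quasi-likelihood F statistic. DESeq2 1.42.0 with a log2 fold-change threshold of 0.1 (the study's test), other normalizations and filters, Xist as a covariate, a loess offset (span 0.3) on transcript length and each library left out were alternatives. That offset was fitted on genes above 1 CPM and centred. Shared sequence was counted as 31-base words of Gencode vM21 transcripts, which also gave positions and transcript types. A length was found for 16287 of 16725 genes.

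Named were the members called, 28 fixed members, each family's extremes and highest TPM, members whose groups do not overlap, and called or 6 fixed genes of the other lists. Dnajc15, Dnajc13, Hspa4l and both Hspa14 rows were named after their values were seen. The members and lists were chosen with earlier results of these data known, so nothing here is independent support. Library totals, with and without haemoglobin, were tried after seeing the data, as were the overlap of the groups in TPM and the macrophage sum without its 2 most abundant genes. The reads carry no molecular identifiers, so count floors (3 counts per library) cover counting error only. The labels do not name litter, sex or batch.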

Additional observations from a re-analysis of the deposited data

Results flagged for a closer look

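Dixon's ratio of a library's gap to its group's range flags about 1 in 20 groups of independent, normally distributed values. The same libraries recur across genes here and some values are near 0, so that share is no yardstick. By this ratio a library stood far from the others of its group in 17 of 85 groups of named members. In 9 of these WT 15416 was the highest of 4: Hspd1 (2044 CPM), Hspe1 (636.6 CPM), Tcp1 (959 CPM), Cct3 (1143 CPM), Cct6a (1135 CPM), Cct7 (1636 CPM), Hspa4 (299 CPM), Hsp90aa1 (4137 CPM) and Hspb1 (70.4 CPM). WT 15418 was apart as the highest for Dnajc22 (10.6 CPM) and Cct6b (1.11 CPM). In KO, 15415 was the highest for Dnajc22 (11.7 CPM), Dnajc6 (2.30 CPM) and Hspb1 (21.3 CPM), 15409 for Hspa5 (1514 CPM) and 15412 for Hspb2 (0.1855 CPM), and 15406 was the lowest for Dnajb6 (79.3 CPM).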

How the results depend on the processing

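All 10 called members kept a negative change in each of the 20 alternatives run on them, while the calls did not hold. The number of members called lower was 0 with the length offset, with Xist as a covariate, with library totals and at an adjusted p under 0.05, 2 with haemoglobin left out of the totals and 25 by DESeq2 without a fold-change threshold; leaving out 1 library gave 0 to 14. For TRiC subunits these numbers were 0, 0, 0, 0, 0 and 8, and 0 to 6. One member was called higher by either DESeq2 setting, and 0 to 1 with 1 library left out. Members with separate groups numbered 1 by library totals, 5 without haemoglobin and 0 in TPM. Leaving out KO 15405, 15406, 15411, 15412 or 15415 or WT 15416 removed all member calls; at most 1 gene of the whole table was then called. Among uncalled members, leaving out 1 library gave ranges that crossed 0 for Dnaja4 (-1.09 to 0.10, highest without WT 15418), Dnajb1 (-0.27 to 0.03, likewise), Cct6b (-1.82 to 1.98, likewise), Dnajc6 (-2.57 to 0.41, highest without WT 15416), Hspb1 (-3.09 to 1.24, likewise), Hspb11 (-0.14 to 0.76, lowest without WT 15416), Dnajc22 (-0.36 to 5.28, lowest without KO 15415) and Hspa2 (-0.55 to 0.01, highest without WT 15420). Dnajb1 was also above 0 with library totals (0.11, without haemoglobin 0.04), and Hspa1a below 0 with the pair added (-0.75). Over all genes DESeq2 without a threshold called 998 higher and 1145 lower. CPM per kilobase in place of TPM put the highest TRiC subunit at 2.26 times the lowest in KO and 2.40 in WT. The cause of these shifts was not tested. No paired analysis was possible because the labels give KO and WT no shared replicate numbers. Depth limits members near 0 most in KO 15406, which had the fewest counts (5315435).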
